A study of Mus musculus with 6 samples.

Results

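The endothelium of the retina forms the inner blood-retina barrier, in which tight junctions close the gaps between cells and little cargo crosses in vesicles. Nutrients therefore enter through transporters in the endothelial membrane, lipophilic drugs are pumped back into the blood by ATP-binding cassette transporters, and iron enters on transferrin through its receptor. Some of these proteins mark barrier endothelium, whereas others serve general metabolism and are also made by neurons, glia or dividing cells. A set of 10 genes was chosen by name, out of 24421 rows of gene symbols in the table, and all 10 were found. Of these, 8 encode transporters or transporter subunits, Tfrc encodes the transferrin receptor, and Spock2 encodes a secreted proteoglycan linked to barrier maturation by low transcytosis.

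Expression was measured by RNA sequencing of preparations described as endothelial cells of the retina, from C57BL/6 pups at postnatal day 7. The 3 control libraries had the genotype Anxa3 fl/fl, and the 3 mutant libraries were Anxa3 fl/fl;Tie2-Cre. Both groups carry floxed alleles of Anxa3, which encodes a calcium-dependent phospholipid-binding annexin, and the Cre transgene was absent from controls, so that effects of Cre itself and of Anxa3 loss cannot be told apart. The Tie2 promoter drives Cre in endothelial cells and also in blood-lineage cells, and the number of pups behind each library is not stated. The p-values here therefore cover the spread among these 6 libraries, part of which may be technical.

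Values are FPKM, fragments scaled by gene length and by library size, as the authors deposited them. Between 21386054 and 30904076 reads per library could be recovered from these values. The check of the targeted gene gave 12.5 ± 2.66 FPKM of Anxa3 in mutants against 26.6 ± 14.6 FPKM in controls (SD, n = 3 each), each mutant below each control, with an exact two-sided permutation p = 0.1, the smallest that 20 arrangements allow. Endothelial markers were present in all 6 libraries, with Pecam1 from 48.9 to 100.3 FPKM and Cdh5 from 51.2 to 113 FPKM. Photoreceptor genes were more abundant, with a mean over 18 genes of 6.89 to 7.60 on the log2(FPKM + 1) scale, so the libraries were not pure endothelium. Control replicate 3 stood apart. Its mean over 20 pan-endothelial genes was 5.94 on the log2(FPKM + 1) scale, against 4.82 to 5.30 in the other 5 libraries, and its photoreceptor mean was the lowest, at 6.89 against 7.23 or more. In bulk samples, fewer cells of a type and less RNA per cell cannot be told apart.

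Before the values, promoter sequences are shown for the 2 members whose excess in control replicate 3 was largest among those with an entry (Slco1c1 and Abcb1a) and the 2 in which it was smallest (Slc2a1 and Tfrc), because these 4 genes mark both ends of the order described further on. RefSeq (build GRCm38.p6) held promoter windows of 300 bases for 9 of the 10 members, 12 windows in all. Printed are the 200 bases farthest upstream of each start, 5′ to 3′ on the strand of the gene, all on the plus strand, with each CG dinucleotide in capitals. The windows are chr6:141524104-141524303 for Slco1c1, chr5:8566841-8567040 for Abcb1a, chr4:119108495-119108694 for Slc2a1 and chr16:32608646-32608845 for Tfrc.
Slco1c1: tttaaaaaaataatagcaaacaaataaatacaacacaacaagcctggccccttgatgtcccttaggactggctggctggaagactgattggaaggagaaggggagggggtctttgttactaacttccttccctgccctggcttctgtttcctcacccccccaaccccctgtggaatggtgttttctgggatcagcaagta
Abcb1a: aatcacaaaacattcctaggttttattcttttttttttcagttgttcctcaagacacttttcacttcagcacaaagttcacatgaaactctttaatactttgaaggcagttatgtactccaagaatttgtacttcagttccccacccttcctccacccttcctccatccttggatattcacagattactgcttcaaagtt
Slc2a1: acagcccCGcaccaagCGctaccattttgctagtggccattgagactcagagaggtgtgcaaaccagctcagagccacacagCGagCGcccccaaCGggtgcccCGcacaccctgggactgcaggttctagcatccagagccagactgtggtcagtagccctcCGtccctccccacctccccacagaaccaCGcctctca
Tfrc: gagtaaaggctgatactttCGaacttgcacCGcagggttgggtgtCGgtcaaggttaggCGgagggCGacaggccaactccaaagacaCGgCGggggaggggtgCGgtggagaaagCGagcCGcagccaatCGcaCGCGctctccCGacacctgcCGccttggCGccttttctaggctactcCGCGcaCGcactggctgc

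The 4 promoters differed in CG content. Over the full 300 bases, the Slco1c1 window held 1 CG dinucleotide and that of Abcb1a held 2. Slc2a1 had 18 and Tfrc had 30, beside a median of 7 over all 32851 windows of the table. Slc16a1 held 42, Slc3a2 15, Slc38a5 10 and Spock2 10, and the 3 windows of Abcg2 held 3, 10 and 28. Ranking by CG content and by the excess thus pointed opposite ways for the 4 genes printed, a remark made after both had been seen, and Slc16a1, with the most CG dinucleotides, lay in the middle of the excess. For Abcb1a the RefSeq start lies 92986 bases upstream of the GENCODE start, so the window may not be the one used in retinal endothelium. The letters ACGTG, core of the hypoxia response element, searched on both strands, occurred in 8 of the 12 windows against 19.6% of all windows. CCGGAA (ETS core, both strands) occurred in 1 of 12 against 14.9%, CTTTGA (TCF/LEF core, both strands) in 3 of 12 against 16.0%, and TATAAA (plus strand only) in 4 of 12 against 8.32%. Several windows of Abcg2 and Tfrc belong to 1 gene each, and the CG dinucleotide is part of both ACGTG and CCGGAA. A match describes letters in a window and says nothing of binding.

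Slc7a5 and Slc2a1 stood at the top of the 10 genes. Averaged over all 6 libraries, the large neutral amino acid carrier Slc7a5 had 169 FPKM, the glucose carrier Slc2a1 120.8 and Spock2 108. Then came the heavy chain Slc3a2 with 61.7 FPKM, Tfrc with 53.5, the glutamine carrier Slc38a5 with 31.4 and the efflux pump Abcg2 with 28.6. The thyroid hormone carrier Slco1c1 had 23.7 FPKM, the monocarboxylate carrier Slc16a1 17.6 and the efflux pump Abcb1a 12.4. FPKM is scaled by gene length, so these levels can be compared between genes. Neighbours in this order were above one another in 6 of 6 libraries, except Slc2a1 over Spock2 and Slc38a5 over Abcg2, which held in 5 of 6. The gap between neighbours exceeded the SD of both over all 6 libraries (n = 6) for 3 pairs, Spock2 over Slc3a2, Tfrc over Slc38a5 and Slc16a1 over Abcb1a, and for the other 6 pairs it did not. Slc7a5 lay above 99.0% of the 13622 genes tested and Abcb1a above 51.5%. Control replicate 3 was the highest library for 10 of 10 members, and for 24.4% of all genes tested.

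**Figure D1:**
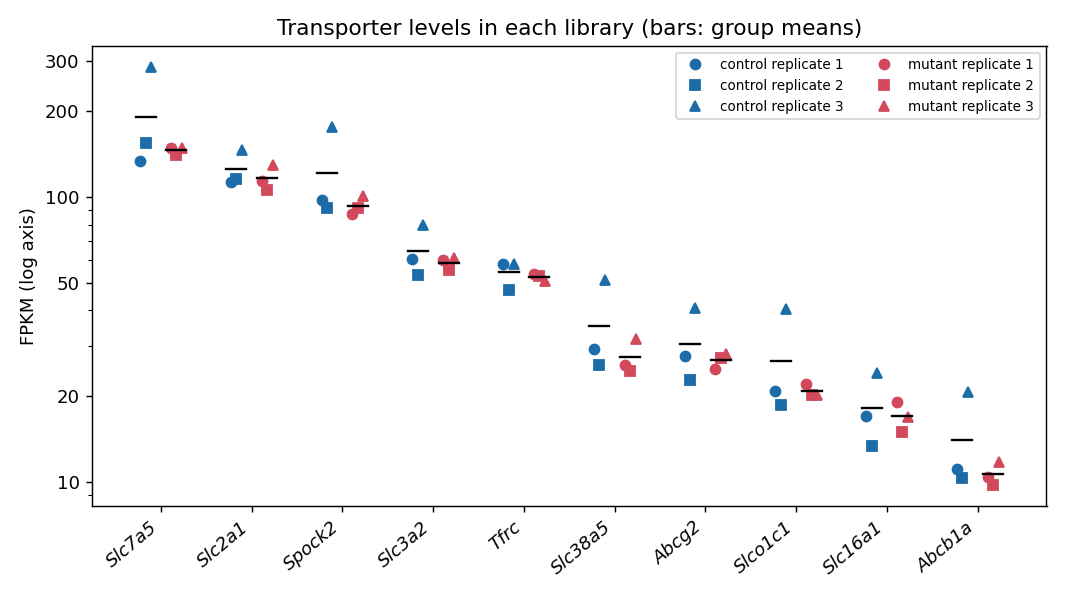
FPKM of each of the 10 genes (x axis, ordered by mean level) in each library, on a log axis; blue symbols are control and red symbols mutant libraries, symbol shape gives the replicate, and bars are group means. The blue triangle, control replicate 3, is the highest point for each of the 10 genes, while for Tfrc it lies level with control replicate 1 (58.4 and 58.1 FPKM).

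Carriers of glucose and lactate come first. Slc2a1, which encodes GLUT1, the main route of glucose across the barrier, had control values of 113, 116 and 146 FPKM (replicates 1 to 3, an order kept throughout). Its mutant values were 114, 106 and 129.7 FPKM. Control replicate 3 was highest, mutant replicate 3 came next, and the groups overlapped. The mean was 125.05 ± 18.5 FPKM over controls and 117 ± 12.005 FPKM over mutants (SD, n = 3 each). Slc16a1, which encodes the monocarboxylate carrier MCT1, stood at 17.1, 13.4 and 24.0 FPKM in controls, with mutant values of 19.1, 15.0 and 16.9 FPKM. Control replicate 2 was lowest, and mutant replicate 1 was second only to control replicate 3.

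Of the amino acid carriers, Slc7a5 and Slc38a5 stood further above the other controls in control replicate 3 than the heavy chain Slc3a2. Slc7a5 encodes LAT1, the light chain that moves large neutral amino acids, and it stood at 134, 155 and 287 FPKM in controls, with mutant values of 149, 141 and 149 FPKM. The mutant libraries lay inside the range of control replicates 1 and 2, with control replicate 3 far above both. Slc3a2, the heavy chain CD98hc that brings LAT1 and related light chains to the membrane, stood at 60.5, 53.4 and 80.1 FPKM in controls, with mutant values of 60.0, 55.4 and 61.0 FPKM. The ratio of light to heavy chain was 2.21, 2.90 and 3.58 in the controls and 2.48, 2.54 and 2.44 in the mutants, so it too was highest in control replicate 3. Slc38a5, which encodes the glutamine carrier SNAT5, stood at 29.2, 25.7 and 51.2 FPKM in controls, with mutant values of 25.8, 24.6 and 31.7 FPKM. Groups overlapped for all 3 genes.

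Among the remaining carriers, Slco1c1 encodes OATP1C1, which carries thyroxine into the brain. It stood at 20.8, 18.5 and 40.5 FPKM in controls, with mutant values of 22.2, 20.1 and 20.2 FPKM, and every mutant library lay between the second and the third control. Abcb1a, which encodes P-glycoprotein, stood at 11.1, 10.3 and 20.7 FPKM in controls, with mutant values of 10.4, 9.78 and 11.7 FPKM. For Abcg2, which encodes the breast cancer resistance protein, controls gave 27.6, 22.9 and 40.9 FPKM and mutants 24.9, 27.2 and 28.1 FPKM. Both pumps were highest in control replicate 3 and overlapped between groups.

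The receptor and the proteoglycan behaved unlike each other. Tfrc stood at 58.1, 47.2 and 58.4 FPKM in controls, with mutant values of 53.6, 52.9 and 50.8 FPKM, the narrowest range of the 10 genes on the log2 scale (0.30). Spock2 stood at 97.5, 91.3 and 177 FPKM in controls, with mutant values of 87.5, 91.7 and 101 FPKM, a log2 range of 1.01. Between 1012 and 26067 reads lay behind each of these values, so counting error was at most 3.14% of a value and small beside the spread between libraries.

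None of the 10 genes passed the test between mutants and controls. All 10 passed the filter of at least 1 FPKM in at least 3 libraries, and 0 passed limma at a Benjamini-Hochberg adjusted p under 0.05, where 0% of the 13622 genes tested did. At an unadjusted p under 0.05 there were 0 of 10 members, beside 1.21% of all genes tested. The groups overlapped for each member, and were separate for 4.35% of all genes. All 10 log2 differences were negative, as were 52.5% of those over all genes, and their median was -0.20 against -0.01 for all genes. They ran from -0.32 for Spock2, -0.31 for Slc7a5 and Abcb1a, -0.30 for Slc38a5 and -0.26 for Slco1c1 to -0.06 for Slc16a1 and -0.05 for Tfrc. The limma 95% interval was widest for Slc7a5, from -0.91 to 0.30, and narrowest for Tfrc, from -0.30 to 0.20, and it held 0 for each member. For Slc2a1 the estimate was -0.10 (SE 0.139), with an interval from -0.42 to 0.23. Differences are on the log2(FPKM + 1) scale, and the limma adjusted p was 1 for each.

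Without control replicate 3 the negative sign was lost for 7 of the 10 members, and for 3 it stayed, at -0.02 to -0.01. The 20 pan-endothelial genes had 20 of 20 differences below 0 over all libraries (median -0.15) and 0 of 20 without that library (median 0.16). With the pan-endothelial mean as a covariate in limma, the members' differences were nearer to 0 for all 10, among them -0.19 for Slc7a5 and Abcb1a, -0.20 for Spock2, -0.18 for Slc38a5, -0.13 for Slco1c1, -0.05 for Abcg2 and -0.04 for Slc2a1, and none passed. Of the pericyte and smooth muscle genes 8 of 10 were higher in mutants, of the photoreceptor genes 15 of 18, of the inner retinal neuron genes 13 of 19, of the Muller glia and astrocyte genes 8 of 13, of the microglia and macrophage genes 2 of 12, and 0 passed limma in each, with 0, 1, 1, 0 and 0 at an unadjusted p under 0.05. Without control replicate 3 the members' log2 difference was 0.02 for Slc2a1 and Slc7a5, 0.05 for Slc3a2, 0.15 for Slc16a1, 0.08 for Slco1c1, 0.09 for Abcg2 and 0.00 for Tfrc, and -0.01 for Slc38a5 and Abcb1a and -0.02 for Spock2. That is 3 of 10 below 0, against 50.5% of all genes, with a median of 0.02. In the 5 libraries other than control replicate 3, the highest value of a gene was between 1.14 times (Slc3a2) and 1.42 times (Slc16a1) the lowest.

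**Figure D2:**
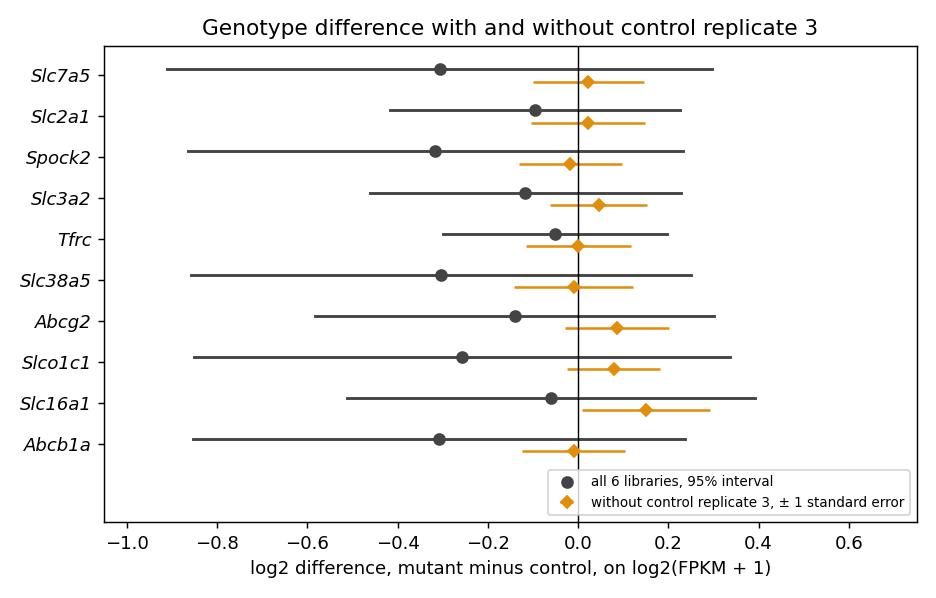
The log2 difference between mutant and control libraries on the log2(FPKM + 1) scale (x axis) for each gene; grey dots and lines are the limma estimate over all 6 libraries with its 95% interval, and orange diamonds the estimate without control replicate 3 with 1 standard error to each side. Every grey interval spans 0, and the orange estimates lie from -0.02 to 0.15.

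The labels also letter the libraries, without saying what a letter means. Marker levels differed between the letter sets A to C and D to F, since the pan-endothelial mean was 4.82 to 4.93 in the first and 5.04 to 5.94 in the second on the log2(FPKM + 1) scale, and the photoreceptor mean was 7.38 to 7.60 and 6.89 to 7.29. Among the libraries A to C (control replicates 1 and 2, mutant replicate 1) the mutant was higher for 5 members and lower for 5, from -0.11 for Spock2 to 0.32 for Slc16a1. Among D to F (control replicate 3, mutant replicates 2 and 3) mutants were lower for all 10, from -0.98 for Slc7a5 to -0.17 for Tfrc. Control replicate 3 is the lone control in the second set, so that library and the genotype cannot be told apart there. With the letters as a block, Spock2 (-0.49), Slc38a5 (-0.47) and Abcb1a (-0.46) had an unadjusted limma p under 0.05, 3 of 10 beside 6.81% of all genes. None passed after Benjamini-Hochberg adjustment, with a smallest limma adjusted p of 0.718.

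How far each gene followed endothelial content was read from the excess of control replicate 3 over the mean of control replicates 1 and 2. The 20 pan-endothelial genes, none of which is a member, had a median excess of 2.09-fold, from 1.66-fold for the VEGF receptor Kdr to 2.87-fold for Egfl7, while the median over all genes tested was 0.984-fold. The members fell in a graded order. Slco1c1 stood at 2.06-fold, Slc7a5 at 1.99-fold, Abcb1a at 1.94-fold, and Spock2 and Slc38a5 at 1.87-fold each, within the pan-endothelial range. Abcg2 stood just under that range at 1.62-fold, followed by Slc16a1 at 1.57-fold, Slc3a2 at 1.41-fold, Slc2a1 at 1.28-fold and Tfrc at 1.11-fold. So 5 of 10 members lay inside the range, as did 7.93% of all genes tested. The range was set after the data were seen, each excess compares 1 library with 2, and no test was made. Without control replicate 3, Pearson r between the log2(FPKM + 1) level and the pan-endothelial mean did not follow this order. In the order given, r was 0.09, -0.07, 0.58, 0.71 and 0.66 for the 5 inside the range. For the others it was 0.76, 0.24, 0.49, 0.62 and 0.02. The order thus describes control replicate 3 and was not seen again in the other libraries. Control replicate 3 is in the letter set D to F and the other controls in A to C, so the letter set and the library cannot be told apart in this measure.

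As background, several genes in both parts of this order are known from other cells. GLUT1 and MCT1 are also made by Muller glia, photoreceptors and pigment epithelium, LAT1 and CD98hc are found on most growing cells, SNAT5 is known from Muller glia, and the transferrin receptor serves iron uptake in any dividing or respiring cell. The part of neurons or glia in each value was not tested, and their markers moved as follows. Photoreceptor genes in control replicate 3 had a median of 0.708-fold that of control replicates 1 and 2, over 18 genes from 0.433 to 0.852, and Muller glia and astrocyte genes 0.792-fold, over 13 genes from 0.534 to 1.53. Inner retinal neuron genes stood at a median of 1.01-fold over 19 genes, with a wide range from 0.545 for Cabp5 to 2.06 for Rbpms. Both were named after their values were seen, and 1 of the 19 lay inside the pan-endothelial range. Some neuronal markers thus had an excess as large as that of members. Microglia and macrophage genes stood at 0.726-fold over 12, from 0.582 to 0.906. No member fell below 1 in this measure, unlike all 18 photoreceptor genes.

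Genes of mural cells, and most proliferation genes to a lesser degree, moved in the same direction as the endothelium. Pericyte and smooth muscle genes had a median excess of 1.85-fold in control replicate 3, from 1.59 to 2.33 over 10 genes, with 8 inside the pan-endothelial range. An endothelial and a mural source of a member can therefore not be told apart by this measure. Proliferation genes had a median of 1.42-fold over 14 genes, from 0.903 for Pcna to 1.92 for Bub1, both named after their values were seen. Inside the pan-endothelial range lay 1 of the 14, and Mki67 ran from 6.90 to 12.4 FPKM. Of the erythroid genes, which bear on Tfrc because red cell precursors carry much of it, 4 of 9 were listed at 0 in all libraries, including the globins Hba-a1 and Hbb-bs, while Alas2, the heme synthesis enzyme of red cell precursors and the 1 gene of the list that was tested, had 0.617 to 2.06 FPKM. Whether globin reads were counted is not given. The mean of the list was 0.13 to 0.26 on the log2 scale. Pigment epithelium and lens genes averaged 0.64 to 1.19, with Rpe65 between 0 and 0.359 FPKM, Rgr between 1.37 and 2.68 FPKM, Pmel between 1.32 and 4.95 FPKM and Ttr between 0.778 and 6.23 FPKM. In control replicate 3 the last 3 were 0.685-fold, 0.789-fold and 0.945-fold the mean of the other controls. Others of this list differed, with Cryba1 at 0.988-fold, Rdh5 at 1.05-fold and Cryaa at 1.39-fold, the latter pair named after their values were seen. The list mean was 0.93 in control replicate 3, between 0.82 and 1.13 in control replicates 1 and 2, so the list showed no common direction.

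**Figure D3:**
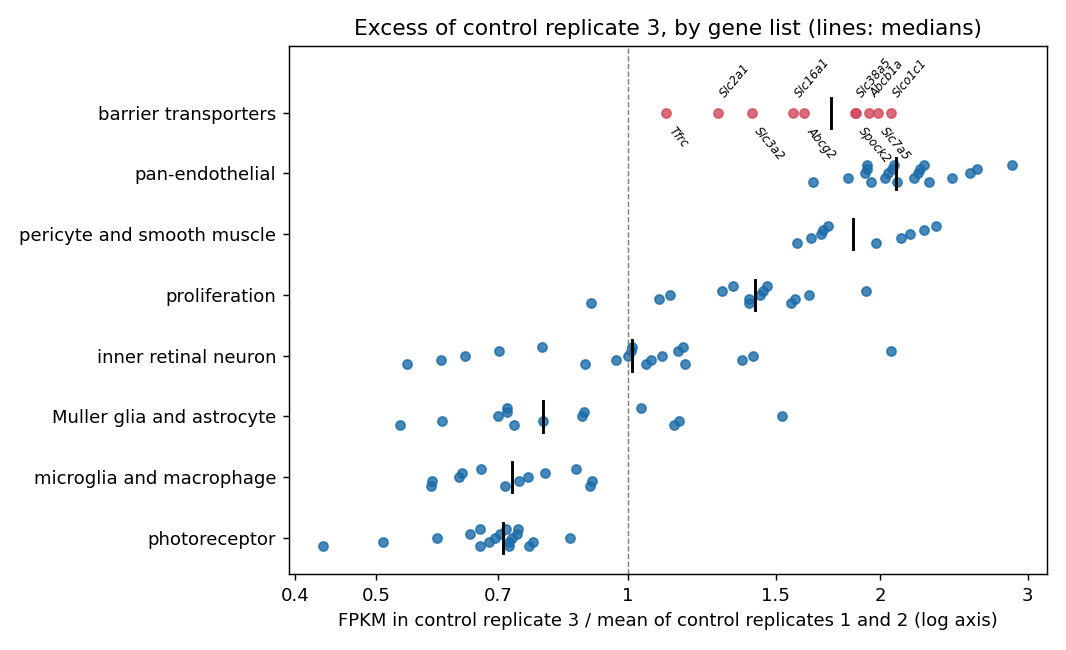
FPKM in control replicate 3 divided by the mean of control replicates 1 and 2 (x axis, log scale) for the tested genes of each list (y axis); red dots are the 10 barrier genes with their names, blue dots genes of the marker lists, and black lines medians. The barrier genes spread from 1.11 for Tfrc, left of every pan-endothelial gene, to 2.06 for Slco1c1, near the pan-endothelial median of 2.09.

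Over all 6 libraries, 8 of 10 members had a Pearson r of at least 0.8 between their log2(FPKM + 1) level and the pan-endothelial mean, beside 12.2% of all genes tested, and the median r was 0.92 for the members and -0.08 for all genes. Abcg2 had r = 0.96 (exact permutation p = 0.00278, Benjamini-Hochberg adjusted p = 0.0833 over 30 relations, n = 6) and a Spearman coefficient of 0.94 (exact p = 0.0167, adjusted p = 0.5). Spock2 had r = 0.96 (exact permutation p = 0.0181, adjusted p = 0.143) and a Spearman coefficient of 0.89 (exact p = 0.0333, adjusted p = 0.5), and Slc38a5 r = 0.95 (exact p = 0.0236, adjusted p = 0.143) and a Spearman coefficient of 0.66 (exact p = 0.175, adjusted p = 0.583). The 2 members under 0.8 were Slc16a1 with r = 0.79 (exact p = 0.0722, adjusted p = 0.186) and a Spearman coefficient of 0.49 (exact p = 0.356, adjusted p = 0.667), and Tfrc with r = 0.51 (exact p = 0.317, adjusted p = 0.378) and the same Spearman coefficient. None of the 30 relations, which paired the 10 members with the pan-endothelial, photoreceptor and Muller glia means, passed after adjustment. Control replicate 3 and mutant replicate 3 were the 2 libraries farthest from the median. With both left out, r was 0.35 or lower except for Abcg2 and Tfrc, and the pan-endothelial mean ran only from 4.82 to 5.04. Without them r was 0.85 for Abcg2, 0.54 for Tfrc, 0.35 for Slco1c1, 0.20 for Slc16a1, 0.18 for Slc3a2 and 0.15 for Spock2. It was -0.19 for Slc38a5, -0.42 for Abcb1a, -0.65 for Slc7a5 and -0.95 for Slc2a1. With control replicate 3 alone left out, r was 0.76 for Abcg2, 0.71 for Spock2, 0.66 for Slc38a5, 0.62 for Slc2a1, 0.58 for Abcb1a and 0.49 for Slc3a2, and it was 0.24 for Slc16a1, 0.09 for Slco1c1, 0.02 for Tfrc and -0.07 for Slc7a5. With the photoreceptor mean r was negative for each member, from -0.87 for Spock2 to -0.29 for Tfrc. With the Muller glia and astrocyte mean it ran from -0.75 for Abcg2 to -0.24 for Slc2a1.

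Setting each gene against the pan-endothelial mean of its own library narrowed the spread of the genes at the top of the order and widened that of the genes at its foot. For Abcb1a the range over the 6 libraries was 1.01 on the log2(FPKM + 1) scale as measured and 0.32 relative to the pan-endothelial mean. It went from 1.01 to 0.34 for Spock2 and from 1.03 to 0.35 for Slc38a5. Slco1c1 and Slc7a5, which had the largest excess, kept wider ranges, from 1.09 to 0.52 and from 1.09 to 0.54. For Tfrc it went the other way, from 0.301 to 1.002, and for Slc2a1 from 0.46 to 0.79. Slc16a1, in the lower part of the order, narrowed slightly, from 0.80 to 0.72. Relative Tfrc levels were 0.95, 0.78 and -0.05 for controls, then 0.86, 0.71 and 0.39 for mutants, lowest where endothelial genes were highest. Subtracting the mean fixes this outcome for any gene with a flat level. The narrowing and widening are therefore no separate evidence beside the excess of control replicate 3, and their size did not follow its order.

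In relative levels too, mutants and controls overlapped for all 10 members, beside 1.09% of all genes with separate groups. Mutants were lower for 5 members and higher for 5. The lower ones were Spock2 (-0.17), Slc7a5, Abcb1a and Slc38a5 (each -0.16) and Slco1c1 (-0.11), and Tfrc (0.10) was highest among the others. For Spock2 the relative levels were 1.69, 1.71 and 1.53 in the controls and 1.56, 1.49 and 1.37 in the mutants, and exact permutation p was 0.2, with 0.667 after adjustment over the 10 members. Abcb1a gave -1.34, -1.31 and -1.50 in the controls and -1.39, -1.61 and -1.63 in the mutants, with the same exact permutation p. The smallest p this design allows is 0.1. Mutant replicate 1 kept the groups together for these 5 genes. Without it, the 5 lay lower in both remaining mutants than in every control, as 0.543% of all genes did. The 5 had been picked as the lower ones in these same values. Mutant replicate 1 is the only mutant among the libraries A to C, so without it genotype and letter set cannot be fully told apart. Without control replicate 3, the mutants all lay below both remaining controls for Slc38a5, Abcb1a and Spock2, beside 18.4% of all genes.

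**Figure D4:**
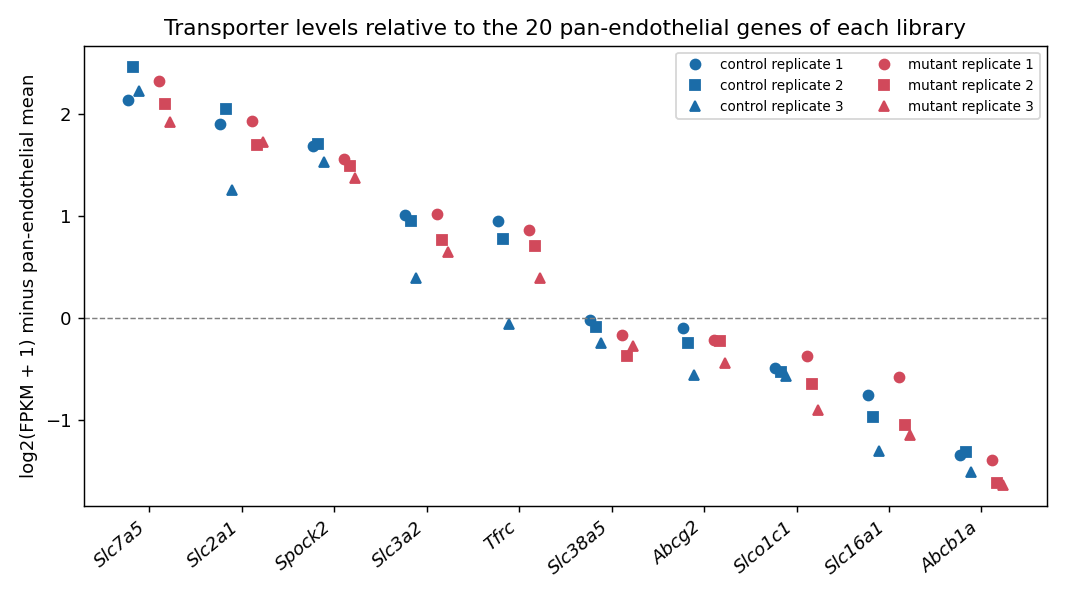
Level of each gene minus the mean of the 20 pan-endothelial genes in the same library, both as log2(FPKM + 1) (y axis), with genes on the x axis in the order of their mean FPKM; blue symbols are control and red symbols mutant libraries, and shape gives the replicate. The blue triangle of control replicate 3 drops to 1.26 for Slc2a1 and -0.05 for Tfrc, and stays among the other points for Slc7a5, Slco1c1 and Slc38a5.

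Partners and paralogues of the members gave no call either. Of 25 such genes 22 were tested, 11 were higher and 11 lower in mutants, 0 passed limma, and the median log2 difference was 0.00 (-0.02 without control replicate 3). Bsg, the chaperone that carries MCT1 to the membrane, ran from 198 to 294 FPKM with an excess of 1.45-fold in control replicate 3, between those of Slc16a1 and Slc3a2. Other light chains of CD98hc did not share the excess of Slc7a5, with 1.03-fold for Slc7a8 (15.3 to 18.8 FPKM) and 0.959-fold for Slc7a6 (11.5 to 13.6 FPKM), whereas Slc7a7 stood at 2.08-fold from 3.37 to 9.09 FPKM. The neuronal glucose carrier Slc2a3 lay at 3.72 to 7.70 FPKM, so Slc2a1 was between 16.9 and 30.6 times as high. Slc16a7 (1.26 to 1.57 FPKM) and Slc16a3 (3.50 to 10.4 FPKM) were also below Slc16a1.

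Slco1a4, the relative of Slco1c1, had 1.97-fold the level in control replicate 3. Slco1c1 was 6.78, 7.01 and 7.21 times as high as Slco1a4 in the controls and 7.93, 6.05 and 8.83 times in the mutants. Slc38a3, the glutamine carrier that is the nearest relative of Slc38a5 in the list, ran from 62.9 to 74.7 FPKM with an excess of 1.18-fold. Abcb1b, the second gene for P-glycoprotein, reached only 0.427 to 1.38 FPKM and missed the filter. Abcb1a and Abcb1b are close copies, and how reads matching both were counted is not given, so the level of Abcb1b is uncertain. The transferrin gene, listed as Trf, went from 23.1 to 48.3 FPKM and had 1.97-fold the level in control replicate 3, unlike its receptor. Spock1 had 1.61 to 2.74 FPKM. By smallest p the list was led by Abcg1 (log2 difference -0.21, SE 0.128), Slc38a2 (-0.18, SE 0.113), Tfr2 (0.22, SE 0.171) and Slc7a7 (-0.33, SE 0.263), each with a limma adjusted p of 1.

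The wider set of 24 further barrier transporters and receptors held no called gene either. Of 22 tested, 17 were lower and 5 higher in mutants, 0 passed, and the median of -0.10 became 0.07 without control replicate 3. For the copper carrier Slc31a1 controls gave 22.6 ± 0.571 FPKM and mutants 20.02 ± 1.73 FPKM, and its excess in control replicate 3 was 1.03-fold. Slc39a10, a zinc carrier, measured 28.8 ± 7.87 and 23.2 ± 1.02 FPKM, Slc16a4 4.67 ± 1.22 and 3.65 ± 0.364 FPKM, and the efflux pump Abcc5 20.9 ± 0.643 and 23.4 ± 2.92 FPKM (SD, n = 3 each). Inside the pan-endothelial range of the excess lay 6 of the 22, among them the lipid carrier Mfsd2a (2.175-fold) and the organic anion carrier Slc22a8 (2.67-fold), both named after their values were seen.

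Junction genes and regulators of the barrier through Wnt signalling gave 14 lower and 4 higher of 18 tested, 0 called, with a median of -0.06 that became 0.10 without control replicate 3. Tspan12, a co-receptor of Norrin signalling, had 12.2 ± 3.97 FPKM over controls and 9.77 ± 0.639 FPKM over mutants. Beta-catenin, encoded by Ctnnb1, measured 248 ± 28.0 and 221 ± 19.6 FPKM, and the junction scaffold Tjp1 58.9 ± 12.6 and 52.5 ± 2.10 FPKM (SD, n = 3 each). In the measure of excess, 10 of the 18 lay inside the pan-endothelial range, and Ctnnb1 (1.21-fold) and Tjp1 (1.402-fold) lay below it.

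For each member, the 3 genes with the most similar pattern over the 6 libraries were sought among 10091 other genes of at least 5 FPKM on average. Slco1c1 was closest to Lims1 (r = 0.9999), Zfp36l1 and Ppp1r2, and Slc7a5 to Capns1 (r = 0.993), Cnksr3 and Ccnd2. Abcb1a was closest to Wwtr1 (r = 0.998), Adgrl4 and Cd93, and Spock2 to Tspan2 (r = 0.999), Nrp1 and Rassf3. Slc38a5 lay nearest Lhfpl2 (r = 0.999), Tnip1 and Ggta1, and Abcg2 nearest Rapgef2 (r = 0.998), Itm2a and Slc40a1. Slc3a2 was closest to Fzd6 (r = 0.997), Lipa and Spata6, Slc16a1 to Slc17a5 (r = 0.997), Wls and Erap1, and Slc2a1 to Ifitm3 (r = 0.996), App and Nans. Tfrc had Mbnl2 (r = 0.977), Rbbp8 and Dusp12, and only 3 genes reached r = 0.95 with it, compared with 245 for Spock2. With 6 libraries of which 1 stands apart, many genes reach such values, and no p is given.

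In GRCm38 (GENCODE M21), Slc2a1 lies on chromosome 4 from 119108711 to 119137983, Slc7a5 on chromosome 8 from 121881150 to 121907694, Slc3a2 on chromosome 19 from 8706882 to 8723369, Slc16a1 on chromosome 3 from 104638668 to 104658462 and Slco1c1 on chromosome 6 from 141524368 to 141570177. Abcb1a lies on chromosome 5 from 8660077 to 8748575, Abcg2 on chromosome 6 from 58584523 to 58695676, Spock2 on chromosome 10 from 60106219 to 60135198, Tfrc on chromosome 16 from 32608920 to 32632794 and Slc38a5 on chromosome X from 8271133 to 8280179. There is 1 value per gene. The gene lengths recovered with the reads were 2572 bases for Slc2a1 and 4977 for Abcb1a, below the 3506 and 5480 exonic bases of this annotation. Exons of a gene on the opposite strand overlap 10.1% of the exonic bases of Abcb1a (Gm42686) and 2.99% of those of Slc2a1 (Gm12868). Reads from such partners cannot be told apart without strand, and whether the overlaps lie within the counted bases is not given.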

How the data were processed

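RNA was measured in 6 libraries, 3 per genotype, grouped by the genotype and replicate in the labels. The authors deposited FPKM values for 24421 rows. STAR 2.5.0b, bedtools 2.17.0, Cufflinks 2.2.1, DESeq2 and build mm10 are named per the submitters' processing notes, with no order or role. Annotation, filters, strand use and the sharing of reads between copies are, in the sources used here, not given. TruSeq RNA v2 libraries were made from total RNA, per the labels' protocols.

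Reads were recovered by scaling the deposited FPKM to whole numbers. All 16491 rows above 0 in every library came out whole within 0.002 reads, or more for high counts. Differences were tested with limma 3.58.1 (R 4.3.3, trended prior) on log2(FPKM + 1), two-sided, for 13622 genes with at least 1 FPKM in 3 libraries, with Benjamini-Hochberg adjustment over all of them and a threshold of 0.05. The fit was tested on simulated data. Python 3.11.15, scipy 1.17.1 and matplotlib 3.10.9 gave exact tests and figures. Members, lists and tests were chosen with earlier results of these data known. Named genes are the members, Anxa3, up to 4 genes of a list with the smallest p, direct partners and the 3 nearest patterns, less any not reported here. Of the marker lists, some of the genes with the smallest p are named and others are not, and 0 of any list passed. Alternatives were a pseudocount of 0.1, no filter, quantile normalization, blocks by replicate and letter, an endothelial covariate, library weights, 5 pan-endothelial genes, the omission of each library and, added after the data were seen, voom on recovered reads.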

Additional observations from a re-analysis of the deposited data

How the results depend on the processing

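No member passed limma under any of the 14 alternatives, with a smallest adjusted p = 0.334 for Abcg2 under library weights. Of 140 alternative values of the 10 log2 differences, 126 kept their direction and 14 turned. Without control replicate 3 they became 0.0221 for Slc2a1, 0.0228 for Slc7a5, 0.0457 for Slc3a2, 0.150 for Slc16a1, 0.0786 for Slco1c1, 0.0868 for Abcg2 and 0.000612 for Tfrc. Library weights gave 0.00261 for Slc3a2, 0.0743 for Slc16a1, 0.0249 for Slco1c1, 0.149 for Abcg2 and 0.0882 for Tfrc. Slc16a1 also turned with the endothelial covariate (0.0175) and without mutant replicate 2 (0.0211). The cause was not tested. Over single omitted libraries the differences ran from -0.17 to 0.02 for Slc2a1, -0.52 to 0.02 for Slc7a5, -0.24 to 0.05 for Slc3a2, -0.25 to 0.15 for Slc16a1, -0.46 to 0.08 for Slco1c1, -0.50 to -0.01 for Slc38a5, -0.48 to -0.01 for Abcb1a, -0.32 to 0.09 for Abcg2, -0.15 to 0.00 for Tfrc and -0.49 to -0.02 for Spock2.

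The count of all genes called was 0 and became 145 with library weights, the lowest weight being 0.260 (control replicate 3) and the highest 7.00 (mutant replicate 2). Members with separate groups numbered from 0 to 1 over single omitted libraries. They were Slc7a5 without control replicate 1, beside 6.51% of all genes tested, and Tfrc without control replicate 2, beside 3.79%. Both members, and the genes in these shares, were lower in mutants. Relative to the pan-endothelial mean the count was 5 without mutant replicate 1, beside 0.543% of all genes, and 3 without control replicate 3, beside 18.4%. It was 0 for each other omission. With quantile normalization it was 1, but without the gene, its direction or a share over all genes, nothing is read from that count. Members with r of at least 0.8 numbered 8, or 9 with 5 pan-endothelial genes. The Anxa3 difference ran from -1.15 to -0.53 over single omitted libraries, and passed under no alternative.

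The deviations of libraries sharing a number correlated at 0.249, -0.151 and 0.391, and those of libraries with different numbers at -0.352 to 0.231. Whether the numbers pair the libraries cannot be decided from so few values. With the replicate block 0 genes and 0 members were called, and the difference was -0.93 for Anxa3 and -0.32 for Spock2. With 1012 reads or more behind each value, the number of libraries limits precision more than depth.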
